A study of Mus musculus with 6 samples.

Results

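The guanylate-binding proteins are a family of large GTPases, and the 10 mouse genes Gbp2, Gbp2b, Gbp3, Gbp4, Gbp5, Gbp6, Gbp7, Gbp8, Gbp9 and Gbp10 were followed in RNA of splenic CD4+ T cells. They were chosen by gene symbol, and all 10 were found among the 28945 genes of the table. Gbp3 was singled out beforehand for its difference between diabetic and control libraries, so every difference between those groups in a member is given as a description, with no test of its own here. The groups were 3 libraries from db/db mice (DM), which carry mutated leptin receptor alleles and become obese and diabetic, and 3 libraries from C57BL/6J mice (CONT). The cells of both groups had been purified from spleen as CD4+ T cells. The labels state no age, sex or treatment, and no strain background for the db/db mice. Whether the libraries stem from different animals is not stated either, so errors measure the spread between libraries, which may be technical.

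Interferon gamma, and more weakly type I interferons, switch on guanylate-binding proteins, in part through IRF1. The proteins bind and hydrolyse GTP, assemble on the membranes of vacuoles that hold bacteria or protozoa and on bacterial surfaces, and help to start inflammasome signalling through caspases. In mice, deletion of the chromosome 3 cluster, which holds Gbp3, impairs control of Toxoplasma gondii. These functions were worked out mainly in macrophages, and T cells also transcribe the genes.

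The members lie in 2 clusters on GRCm38, on chromosomes 3 and 5. On chromosome 3, all on the plus strand, stand Gbp5 (142493978 to 142522344), Gbp7 (142530342 to 142550149), Gbp3 (142560026 to 142573209), Gbp2b (142594847 to 142619179) and Gbp2 (142620602 to 142638008). The chromosome 5 cluster, on the minus strand, holds Gbp8 (105014150 to 105139540), Gbp9 (105077630 to 105139539), Gbp4 (105115767 to 105139586), Gbp10 (105215699 to 105239533) and Gbp6 (105270702 to 105293698). Gbp8, Gbp9 and Gbp4 overlap one another on the same strand, so their reads may have been divided between them. All 10 are annotated as protein coding.

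Upstream sequence is shown for Gbp3 and its 4 neighbours on chromosome 3, since Gbp3 and the other 4 had differences of opposite sign. RefSeq windows of GRCm38.p6 covered these 5 of the 10 members, and the 250 bases before a start site are printed 5′ to 3′ on the plus strand. Capitals mark 2 interferon response patterns: the ISRE letters, which are GAAA, any 2 bases and GAAA again, searched on both strands and reading TTTC, any 2 bases and TTTC on the other, and the GAS letters TTCNNNGAA, which read the same on both strands. The windows are chr3:142559794-142560043 for Gbp3, chr3:142496684-142496933 for Gbp5, chr3:142530086-142530335 for Gbp7, chr3:142594597-142594846 for Gbp2b and chr3:142620413-142620662 for Gbp2.
Gbp3: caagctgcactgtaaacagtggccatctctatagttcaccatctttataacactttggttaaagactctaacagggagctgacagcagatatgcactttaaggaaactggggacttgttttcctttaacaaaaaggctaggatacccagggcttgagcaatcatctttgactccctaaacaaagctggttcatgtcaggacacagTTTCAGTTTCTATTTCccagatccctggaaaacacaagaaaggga
Gbp5: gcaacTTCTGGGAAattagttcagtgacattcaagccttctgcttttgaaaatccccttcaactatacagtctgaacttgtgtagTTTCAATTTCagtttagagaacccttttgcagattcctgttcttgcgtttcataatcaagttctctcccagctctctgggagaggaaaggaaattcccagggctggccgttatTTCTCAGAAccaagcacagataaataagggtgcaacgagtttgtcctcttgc
Gbp7: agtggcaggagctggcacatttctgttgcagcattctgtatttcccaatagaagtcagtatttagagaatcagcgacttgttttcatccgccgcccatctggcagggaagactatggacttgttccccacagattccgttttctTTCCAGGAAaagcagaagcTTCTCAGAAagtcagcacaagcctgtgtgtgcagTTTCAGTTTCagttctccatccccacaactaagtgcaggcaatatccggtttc
Gbp2b: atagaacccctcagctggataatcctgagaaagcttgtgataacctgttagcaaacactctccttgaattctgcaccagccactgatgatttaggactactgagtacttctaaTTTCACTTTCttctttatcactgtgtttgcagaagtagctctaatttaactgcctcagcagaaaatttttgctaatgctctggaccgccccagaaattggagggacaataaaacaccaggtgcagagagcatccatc
Gbp2: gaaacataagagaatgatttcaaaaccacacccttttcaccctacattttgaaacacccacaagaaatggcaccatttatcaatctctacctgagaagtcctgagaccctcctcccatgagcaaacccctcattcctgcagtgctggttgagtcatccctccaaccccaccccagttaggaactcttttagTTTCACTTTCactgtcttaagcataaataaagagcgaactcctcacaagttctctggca

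The ISRE letters stood in the window of each of these 5 members, against 2.98% of the 32851 RefSeq windows searched in the same way. In Gbp3 there were 2 matches sharing 4 bases, which together ran from 45 to 30 bases before the start. A RefSeq start of Gbp3 further downstream had neither pattern in its window. The single ISRE match lay 165 to 156 bases before the start in Gbp5, 53 to 44 in Gbp7, 137 to 128 in Gbp2b and 59 to 50 in Gbp2. The GAS letters were found in the windows of Gbp5 and Gbp7, each with 2 matches, against 7.02% of all windows. A match describes letters in a window of the reference sequence and is not a measured binding site.

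In the data as a whole, the summed FPKM of all genes, a level scaled to transcript length and to the fragments sequenced, was 385070 to 410282 in DM libraries and 248070 to 369531 in CONT libraries. CONT replicate 1 stood apart, with the lowest sum and a mean correlation with the remaining CONT libraries of 0.878, while the other 5 libraries had 0.915 to 0.949 within their groups (log2(FPKM + 1)). The 17 CD4 T cell identity genes, Cd4 and the Cd3 chains among them, were present in every library, and they summed to 2400 to 3490 FPKM in DM and 2920 to 4160 FPKM in CONT. Of these 17 genes 2 had a log2 difference above 0, with a median of -0.45, and 48.8% of all genes tested were above 0. Limma called 0 of the 17 and had 5 at an unadjusted p under 0.05, against 1.52% and 16.0% of all genes tested. Cd4 was at 82.4, 134 and 93.2 FPKM in DM and 220.1, 161 and 149 FPKM in CONT, with no overlap. Markers of other cells were higher in DM: 13 of 13 tested macrophage and monocyte genes were above 0 on the log2 scale, against 48.8% of all genes tested. Their summed levels were 320 to 1190 FPKM in DM and 35.9 to 107 FPKM in CONT. Medians were above 0 for 9 of 10 marker lists, and no listed marker found in the table was at 0 in all libraries. Neutrophil markers summed to 239 to 1370 FPKM in DM and 32.8 to 119 FPKM in CONT, and basophil and mast cell markers to 72.2 to 336 FPKM in DM and 3.15 to 7.68 FPKM in CONT. Summed B cell markers were at 11.9 to 351 FPKM in DM and 5.47 to 24.8 FPKM in CONT, and Cd8a reached 12.7 FPKM in DM replicate 3, against 0.131 to 0.967 FPKM in the other 5 libraries. Cd8b1, the other CD8 T cell marker, was at 4.51, 6.31 and 39.0 FPKM in DM and 7.65, 7.48 and 7.38 FPKM in CONT. In RNA from a cell population, fewer cells of a type and less RNA per cell cannot be told apart.

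Gbp3 RNA was about 5 times as abundant in DM as in CONT, and of the 10 members it alone was higher in DM. Because the strain background of the db/db mice is not stated, strain and the leptin receptor mutation cannot be told apart for this or any other difference between the groups. Gbp3 stood at 59.2, 57.4 and 57.1 FPKM in DM replicates 1, 2 and 3, against 9.90, 10.0 and 12.1 FPKM in CONT replicates 1, 2 and 3. The DM libraries lay close together and all above the CONT libraries, and the lowest DM value was 4.71 times the highest CONT value. The means were 57.9 ± 1.18 FPKM in DM and 10.7 ± 1.24 FPKM in CONT (SD, n = 3 each), a ratio of 5.42. On log2(FPKM + 1), which understates the change of low genes, the difference was 2.34 ± 0.18 (SE), the 211th highest of 13106 genes tested; without CONT replicate 1 it was 2.29. A gene counted as tested when its mean was at least 1 FPKM in DM or CONT. The coefficient of variation of Gbp3 was 2.04% in DM, in libraries where summed macrophage and monocyte markers spanned 320 to 1190 FPKM, and 11.6% in CONT. The part of other cells in the level of Gbp3 was not tested. Gbp11, a family gene outside the 10 members, was also above CONT in every DM library, with a log2 difference of 0.54 ± 0.23 (SE).

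**Figure D1:**
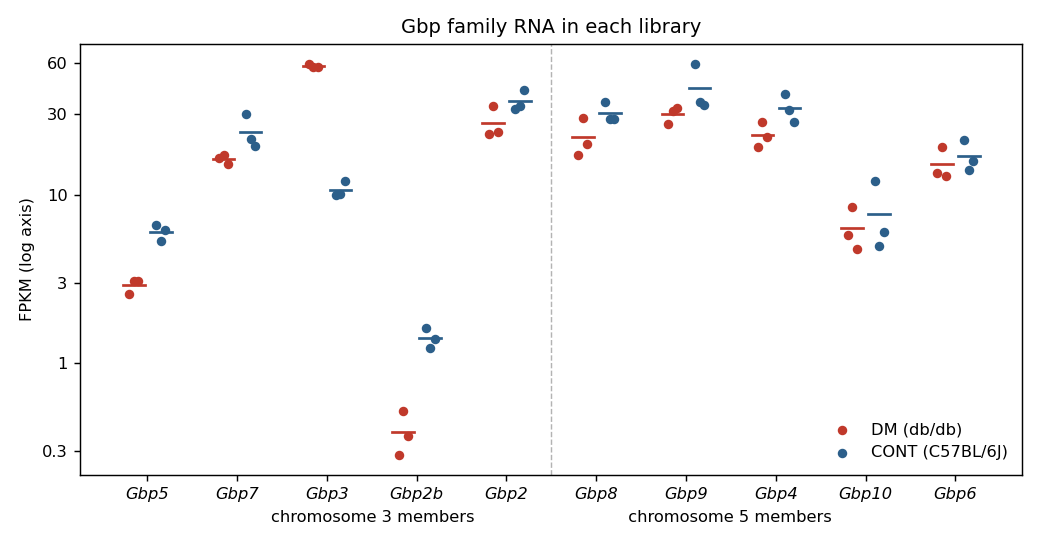
FPKM (log axis) of the 10 members in each library, in their order along chromosomes 3 and 5, with DM left of CONT; points are libraries and bars are means of 3. Gbp3 sits at 57.1 to 59.2 in DM and 9.90 to 12.1 in CONT, while Gbp2b, Gbp5, Gbp7, Gbp4 and Gbp9 lie lower in every DM library than in any CONT library.

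The other 4 members on chromosome 3 were lower on average in DM. Gbp2b, which coats parasite vacuoles in mouse macrophages, was the least abundant member, at 0.284, 0.517 and 0.368 FPKM in DM and 1.62, 1.23 and 1.40 FPKM in CONT. Gbp2b lies next after Gbp3 on the chromosome, with its DM values all below its CONT values. Its mean was 0.390 ± 0.118 FPKM in DM and 1.42 ± 0.191 FPKM in CONT (SD, n = 3 each), a ratio of 0.275, and the log2 difference was -0.80 ± 0.21 (SE). Gbp2b entered the genes tested only through its CONT mean, since its DM mean was below 1 FPKM. Gbp5, which takes part in assembly of the NLRP3 inflammasome in mice, was at 2.57, 3.08 and 3.08 FPKM in DM and 6.57, 5.28 and 6.19 FPKM in CONT. Its groups did not overlap either, and its means were 2.91 ± 0.293 FPKM in DM and 6.02 ± 0.665 FPKM in CONT (SD, n = 3 each), with a log2 difference of -0.84 ± 0.18 (SE).

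Gbp7 and Gbp2 were the more abundant neighbours. Gbp7, which has been tied to assembly of the NADPH oxidase in mouse macrophages, was at 16.5, 17.1 and 15.2 FPKM in DM and 29.9, 21.4 and 19.5 FPKM in CONT. The DM values of Gbp7 were all below its CONT values, of which CONT replicate 1 was the highest. The log2 difference of Gbp7 was -0.49 ± 0.22 (SE), and -0.32 without CONT replicate 1. Gbp2, which acts on bacteria and Toxoplasma vacuoles in mice, was at 22.8, 33.6 and 23.6 FPKM in DM and 32.3, 33.4 and 42.0 FPKM in CONT. For Gbp2 the groups overlapped, because DM replicate 2 was as high as CONT replicates 1 and 2, and the log2 difference was -0.43 ± 0.23 (SE).

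Set against its neighbours within a library, Gbp3 changed place. Its log2(FPKM + 1) was 2.93, 2.77 and 2.84 above the median of Gbp5, Gbp7, Gbp2b and Gbp2 in DM replicates 1, 2 and 3. In CONT replicates 1, 2 and 3 that distance was -0.49, -0.11 and 0.11. The mean distance was 2.84 ± 0.08 in DM and -0.16 ± 0.30 in CONT (SD, n = 3 each), so the groups were 3.01 apart on the log2 scale. A ratio within a library does not depend on how libraries are scaled: Gbp3 was at 3.58, 3.36 and 3.76 times the FPKM of Gbp7 in DM, and at 0.331, 0.467 and 0.621 times in CONT. The ratio of Gbp3 to Gbp2 was 2.60, 1.71 and 2.42 in DM and 0.306, 0.30 and 0.288 in CONT. Both ratios were above 1 in each DM library and below 1 in each CONT library.

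**Figure D2:**
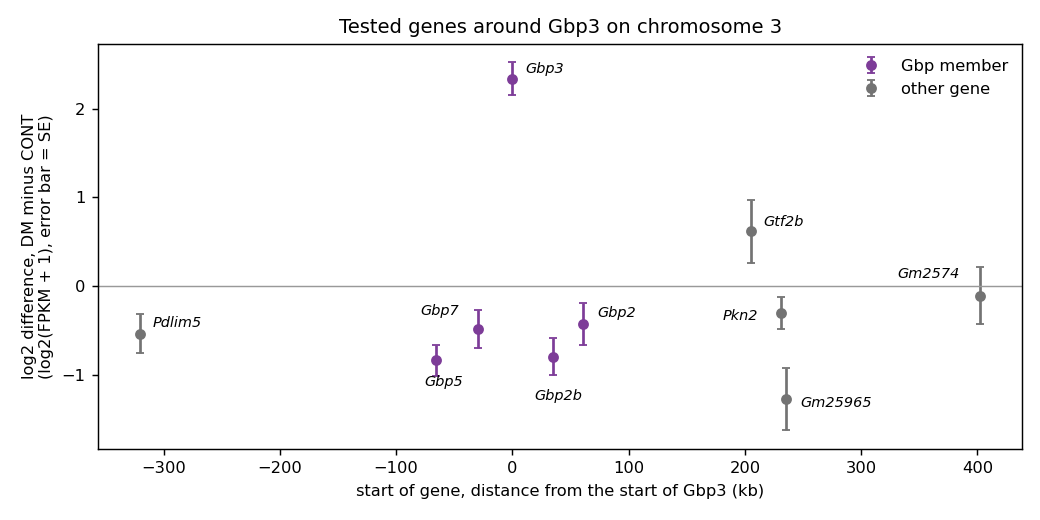
Log2 difference (DM minus CONT on log2(FPKM + 1), error bars SE) of each tested gene within 500 kb of the chromosome 3 cluster, by the distance of its start from that of Gbp3 in kb. Gbp3 is at 2.34, and the 4 other members, between -0.84 and -0.43, lie on both sides of it.

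Reads can only be assigned to a member where its sequence differs from the other members. Gbp3 coding sequence was closest to that of Gbp7, at 79.3% identical bases among those aligned, and was 74.4% to 75.2% identical to the chromosome 5 members and 65.9% to Gbp2b. Of the 2607 words of 75 bases in the longest coding transcript of Gbp3, 2.69% also occurred in another gene, which was Gbp7 in each case. The longest run of coding bases common to Gbp3 and Gbp7 had 123 bases, positions 928 to 1050 from the first base of the Gbp3 coding sequence, and is shown since it is the longest stretch where reads of these 2 genes could not be told apart. It held 49 of the 70 shared words, and the other 21 lay elsewhere.
Gbp3 and Gbp7: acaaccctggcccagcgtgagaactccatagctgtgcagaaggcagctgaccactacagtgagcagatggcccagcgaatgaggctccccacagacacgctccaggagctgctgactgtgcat

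Outside such runs the 2 genes differ within the length of a read of 75 bases, although the labels do not state how long the reads were. Gbp7, whose words were shared with Gbp3 in 2.89% of cases, was lower in DM while Gbp3 was higher. Whether reads of either gene were counted for the other was not tested, and all words were taken from the reference sequence. Among the chromosome 5 members the coding sequences were 90.2% to 98.4% identical. Gbp6 and Gbp10, the most alike, shared 86.05% and 75.54% of their words with another gene, mostly with the overlapping annotated gene Gm43302, so the levels of Gbp6 and Gbp10 are uncertain.

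**Figure D3:**
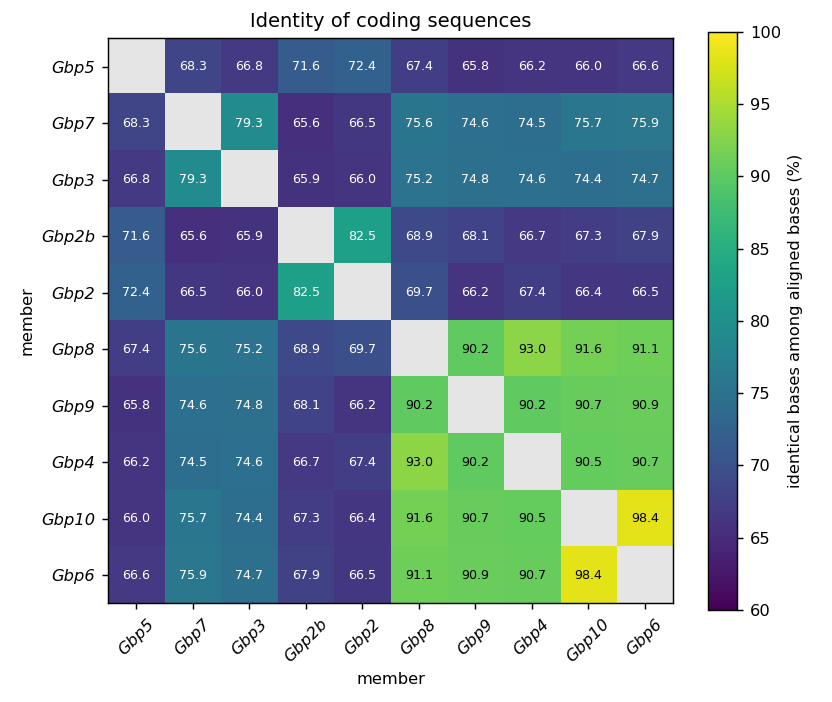
Percent identical bases among aligned bases between the longest annotated coding sequences of the members, ordered along chromosomes 3 and 5. The chromosome 5 members form a block at 90.2% or more, and the closest relative of Gbp3 is Gbp7 at 79.3%.

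All 5 members on chromosome 5 had a lower mean in DM. Gbp9, the most abundant member in CONT, was at 26.1, 31.2 and 32.8 FPKM in DM and 59.9, 35.5 and 34.2 FPKM in CONT. Gbp4 was at 19.1, 26.9 and 22.1 FPKM in DM and 39.5, 31.8 and 26.9 FPKM in CONT. The groups of Gbp9 and Gbp4 did not overlap, by narrow margins: the highest DM value was 0.960 times the lowest CONT value for Gbp9 and 0.998 times for Gbp4. Their log2 differences were -0.47 ± 0.27 and -0.51 ± 0.23 (SE), and without CONT replicate 1 they were -0.21 for Gbp9 and -0.37 for Gbp4.

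Gbp8 was at 17.2, 28.4 and 19.97 FPKM in DM and 35.5, 28.1 and 28.0 FPKM in CONT, with DM replicate 2 inside the CONT range, and had a log2 difference of -0.49 ± 0.24 (SE). Gbp6 and Gbp10, both tied to killing of bacteria in mouse macrophages, overlapped most. Gbp6 was at 13.4, 19.1 and 12.9 FPKM in DM and 20.9, 13.97 and 15.7 FPKM in CONT, and Gbp10 was at 5.79, 8.42 and 4.74 FPKM in DM and 12.1, 4.92 and 5.98 FPKM in CONT. Their log2 differences of -0.15 ± 0.24 for Gbp6 and -0.19 ± 0.34 for Gbp10 (SE) were smaller than their errors and changed sign without CONT replicate 1, to 0.01 for Gbp6 and 0.16 for Gbp10.

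By level, Gbp3 ranked first of the 10 members in each DM library. Comparing levels between genes rests on the inference that the values are FPKM and so scaled to length, which no label states. The places of Gbp8, Gbp9 and Gbp4, which overlap, and of Gbp6 and Gbp10, which share sequence, are less certain. In DM its lowest value, 57.1 FPKM, was above the highest value of Gbp9, the next member, at 32.8 FPKM. Behind it in DM the ranges of Gbp9, Gbp2, Gbp4 and Gbp8 overlapped from each to the next, with means between 30.05 and 21.85 FPKM. In CONT the order was Gbp9, Gbp2, Gbp4, Gbp8, Gbp7 and Gbp6, with means of 43.2, 35.9, 32.7, 30.5, 23.6 and 16.9 FPKM, each overlapping the next. Gbp3 came after these in CONT, with no overlap with Gbp6 above it and with overlap with Gbp10 below it. Gbp5 and Gbp2b had the lowest means in both groups, although in CONT the range of Gbp5 overlapped that of Gbp10.

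The make-up of the family's RNA differed between the groups, while its summed FPKM differed by less than the spread between libraries. The 10 members summed to 183, 226 and 192 FPKM in DM and 248, 186 and 192 FPKM in CONT, with means of 200.1 ± 22.4 FPKM in DM and 209 ± 34.4 FPKM in CONT (SD, n = 3 each). The ratio of these means was 0.959; it was 1.06 without CONT replicate 1, where the CONT mean was 189 FPKM. As a share of the summed FPKM of all genes, the members made up 0.0446%, 0.0566% and 0.0498% in DM and 0.10%, 0.0567% and 0.0519% in CONT, a ratio of means of 0.724, with CONT replicate 1 above the other 5 libraries. Gbp3 made up 32.4%, 25.4% and 29.7% of the members' sum in DM and 3.99%, 5.4% and 6.31% in CONT. Without Gbp3 the other 9 members summed to 142 ± 23.1 FPKM in DM and 198 ± 35.0 FPKM in CONT (SD, n = 3 each), a ratio of 0.719.

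**Figure D4:**
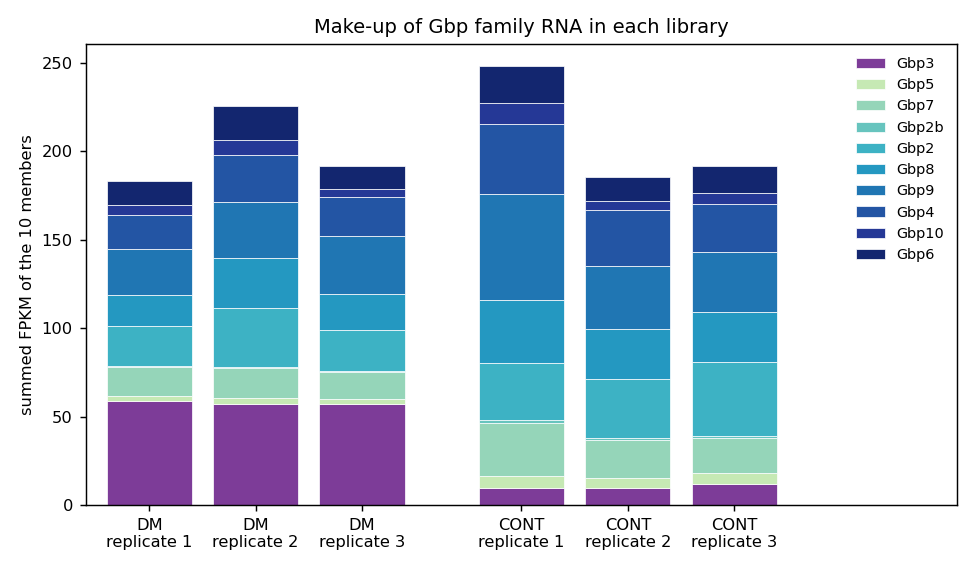
Summed FPKM of the 10 members in each library, split by member, with Gbp3 at the foot of each bar, in linear units from 0. Gbp3 fills 25.4% to 32.4% of the DM bars and 3.99% to 6.31% of the CONT bars, while the bars reach 183 to 226 in DM and 186 to 248 in CONT.

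Counted over the family, 1 of 10 members (Gbp3) lay above CONT in every DM library, as did 13.8% of all genes tested, and 5 lay below CONT in every DM library, as did 13.2% of all genes. The groups overlapped in 4 members, and did not overlap in 27.1% of all genes. The authors' deposited table flagged 3 members, Gbp3 as up and Gbp2b and Gbp5 as down, with 7.85% of all its genes flagged up, 3.11% down and 11.0% in either direction. Because this contrast chose Gbp3, nothing is read from these counts. The median log2 difference was -0.48 over the 10 members and -0.01 over all genes tested, beside -0.45 over the CD4 T cell identity genes. Whether the lower levels of the other 9 members and of those genes are related was not tested.

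Over all genes tested, limma called 1.27% higher and 0.252% lower in DM at a Benjamini-Hochberg adjusted p under 0.05, or 1.52% in either direction, and 16.0% had an unadjusted p under 0.05. No gene beside the clusters was called in either direction, which for so few genes is near the 1.52% called over all genes. Of 5 tested genes within 500 kb of the chromosome 3 members none passed at a Benjamini-Hochberg adjusted p under 0.05 and 2 had an unadjusted p under 0.05, Pdlim5 and Gm25965, both lower in DM. The nearest of them downstream was Gtf2b, a general transcription factor of RNA polymerase II, at 14.9 FPKM in DM and 10.1 FPKM in CONT on average, with a log2 difference of 0.62 ± 0.35 (SE; limma adjusted p = 0.374, Benjamini-Hochberg). Kyat3, an aminotransferase gene between Gbp2 and Gtf2b, was below the level tested, at 0.420 FPKM in DM and 0.291 FPKM in CONT. On chromosome 5 none of 10 tested genes passed with limma and 1, Gm24097, had an unadjusted p under 0.05. Among these 10 were Gbp11, a further gene of the family, and Gm43302, which overlaps Gbp10 and Gbp6. Gm25965 and Gm24097 entered the genes tested only through their CONT means, of 1.80 and 1.96 FPKM. Their DM means were 0.0828 and 0.472 FPKM.

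Genes that carry the interferon gamma signal gave no call. Over all genes tested limma called 1.52% and had 16.0% at an unadjusted p under 0.05. No call in a list this short is near that share. Of 18 tested genes of this pathway, 0 passed with limma at a Benjamini-Hochberg adjusted p under 0.05, 1 had an unadjusted p under 0.05, and the median log2 difference was -0.13. The gene with the smallest p was Irf8, a transcription factor of myeloid and B cells, at 9.15, 4.99 and 15.3 FPKM in DM and 2.59, 1.88 and 1.72 FPKM in CONT (log2 difference 1.71 ± 0.36 SE; limma adjusted p = 0.0772, Benjamini-Hochberg). Ifng itself was at 4.39, 8.15 and 6.19 FPKM in DM and 2.39, 4.18 and 5.85 FPKM in CONT, and its groups overlapped. Irf1, which binds the ISRE pattern, was at 31.3, 49.9 and 41.2 FPKM in DM and 40.9, 42.2 and 46.9 FPKM in CONT, also with overlap.

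Other interferon-induced genes gave no call either. Over all genes tested limma called 1.52% and had 16.0% at an unadjusted p under 0.05. Both lists that follow are near those shares, so nothing is read from the lack of calls. Of 19 tested interferon gamma targets, 0 passed with limma and 3 had an unadjusted p under 0.05, with a median log2 difference of 0.18. That median was -0.17 with libraries scaled to equal totals, which moved the median of all genes to -0.32. Of the 3, Serpina3g and Cxcl10 were above CONT in every DM library, and Parp14 was below CONT in every DM library. Their log2 differences were 1.14 ± 0.28 for Serpina3g, 0.596 ± 0.205 for Cxcl10 and -0.761 ± 0.289 for Parp14 (SE). The limma adjusted p was 0.118 for Serpina3g, 0.248 for Cxcl10 and 0.286 for Parp14 (Benjamini-Hochberg). Of 30 type I interferon signalling genes and targets, 0 passed with limma, 4 had an unadjusted p under 0.05 and the median was -0.31. In the type I interferon list the genes with the smallest p were Xaf1, a promoter of apoptosis, and Oas2, a sensor of double-stranded RNA. The log2 difference was 1.45 ± 0.29 for Xaf1 (SE, limma adjusted p = 0.0700, Benjamini-Hochberg). It was -1.26 ± 0.36 for Oas2 (SE, limma adjusted p = 0.171, Benjamini-Hochberg). Oas2, Ifit1 and Usp18, the rest of the 4, were below CONT in every DM library. Of the 30 genes 6 had a log2 difference above 0, against 48.8% of all genes tested. Xaf1 was at 17.3, 16.6 and 15.9 FPKM in DM and 9.18, 3.82 and 4.41 FPKM in CONT, and so was also above CONT in every DM library.

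Other GTPases gave no call. The immunity-related GTPases, which are switched on by interferon gamma and act on the same vacuoles in mice, had a median log2 difference of -0.38 over 9 tested genes, with 0 past limma's threshold and 2 at an unadjusted p under 0.05. These were the neighbouring copies Tgtp2, at 36.1, 27.3 and 16.3 FPKM in DM and 39.6, 48.3 and 51.7 FPKM in CONT, and Tgtp1, whose reads may be shared with it. Of 11 tested dynamin-like GTPases related to the family, 0 passed and 1 had an unadjusted p under 0.05 with limma, with a median of -0.10. For both lists the shares over all genes tested were 1.52% called and 16.0% at an unadjusted p under 0.05 with limma, so no call is near that share.

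Among the partners through which these proteins act, 1 gene rose. Of 12 tested inflammasome genes Casp4, the caspase that senses bacterial lipopolysaccharide in the cytosol, was at 12.2, 11.7 and 12.8 FPKM in DM and 5.54, 4.06 and 5.66 FPKM in CONT (log2 difference 1.13 ± 0.18 SE; limma adjusted p = 0.0349, Benjamini-Hochberg). Casp1, which cleaves interleukin 1 beta, was at 25.5, 24.6 and 24.0 FPKM in DM and 7.35, 10.0 and 13.7 FPKM in CONT but did not pass (limma adjusted p = 0.0639, Benjamini-Hochberg). The list had a median log2 difference of 0.73, with all 12 genes above 0 and 7 at an unadjusted p under 0.05. Over all genes tested 48.8% were above 0, 16.0% had an unadjusted p under 0.05 and 1.52% were called with limma. In these libraries 13 of 13 macrophage and monocyte genes were also above 0, and their part was not tested. The number of inflammasome genes called was 1 in 6 of 14 alternatives and 0 in the other 8, among them 5 of the 6 fits that left out 1 library. Of 12 genes of the ATG8 conjugation machinery that places the proteins on vacuoles, 0 passed and 1 had an unadjusted p under 0.05 with limma, with a median of 0.26. Of 8 genes of prenylation, the lipid attachment that anchors the family's CaaX members to membranes, 0 passed and 0 had an unadjusted p under 0.05 with limma.

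**Figure D5:**
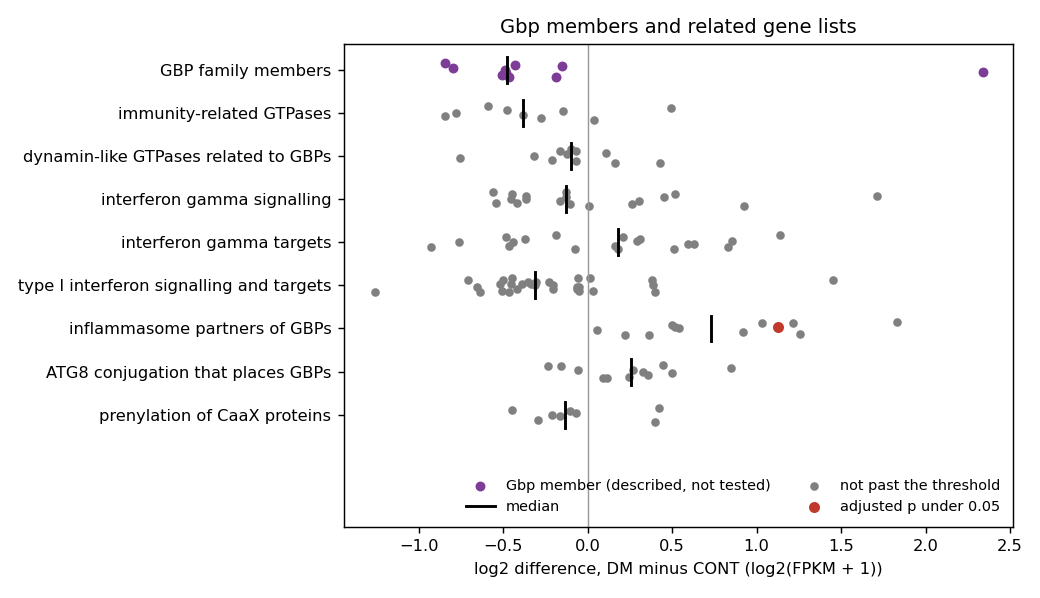
Log2 difference (DM minus CONT on log2(FPKM + 1)) of each tested gene, by list, with vertical bars at list medians; vertical scatter within a list only separates points. Gbp3 stands at 2.34 apart from the other 9 members, whose values are between -0.84 and -0.15, and Casp4 is the 1 called gene among the other 8 lists.

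Likeness to the pattern of Gbp3 over the 6 libraries was measured by Pearson correlation of log2(FPKM + 1) among tested protein-coding genes. The members and predicted genes, with Gm or Rik names, were left out. The 5 genes most like Gbp3 were Ostm1, Prss41, Xkr6, Gpr15 and H2aj, with r of 0.997, 0.996, 0.995, 0.994 and 0.993. All 6 libraries enter each r, so the choice itself favoured genes that separate the groups as Gbp3 does. That each of these 5 genes was higher in every DM library than in any CONT library is therefore no separate result. Prss41 and Xkr6 entered the genes tested only through DM, since all their CONT values were below 1 FPKM. The size of the step varied: the log2 difference was 2.41 ± 0.18 (SE) for Xkr6, which was at 4.99, 5.89 and 6.23 FPKM in DM and 0.263, 0.233 and 0.279 FPKM in CONT. It was 0.30 ± 0.15 (SE) for Ostm1, which was at 11.03, 11.3 and 11.2 FPKM in DM and 8.82, 8.85 and 9.01 FPKM in CONT.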

How the data were processed

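RNA of splenic CD4+ T cells was sequenced in 3 DM and 3 CONT libraries. The authors deposited 1 table of 28945 genes with a value per library that the file name calls counts; the values are not whole. The deposited values were taken as FPKM made by the authors, an inference from values that are not whole and totals that differ between libraries; no label or header names the unit, and raw counts were not used. Per the submitters' processing notes, cutadapt 1.9, FastQC and GRCm38 were used; no label or header states the aligner, the quantifier, strandedness or how reads matching several genes were handled. The deposited p-value and q-value columns, the ratio (fold) and its log2 in the authors' table come from a test not named; only the flag of changed genes is quoted. The number of reads behind each value is unknown, and intervals for counting error were not computed.

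The members and lists were chosen with earlier results of these data known. The design had named limma for FPKM, and log2(FPKM + 1) entered limma 3.58.1 (R 4.3.3; trended, robust, no covariate) over the 13106 genes with a mean of at least 1 FPKM in DM or CONT; 15839 were below that level. Calls are at a Benjamini-Hochberg adjusted p under 0.05. The procedure was tested on simulated data. Beside the members, named genes were taken from each list by smallest adjusted p (up to 4, and any called), and as the 5 genes most like Gbp3; Irf1, Ifng, the neighbours within 500 kb (Pdlim5, Gm25965, Gtf2b, Kyat3, Gm24097), Gbp11 and Gm43302 were named outside that rule after their values were seen, as was Cd4.

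Positions and transcripts came from GENCODE M21, an annotation of GRCm38, which matched 28864 of 28945 gene identifiers. Coding sequences were aligned globally with Biopython 1.88, and words of 75 bases of each member's transcript were looked up, on both strands, in all annotated transcripts. Libraries of DM and CONT share replicate numbers, which the labels do not say pair them. Figures used matplotlib 3.10.9 in Python 3.11.15. Alternatives are under the processing heading of the closing section. One result is not reported here.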

Additional observations from a re-analysis of the deposited data

How the results depend on the processing

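The Gbp3 difference of 2.34 kept its direction in all 14 alternatives, between 2.0 and 2.43; it was 2.0 with libraries scaled to equal totals, where the median of all genes was -0.32, and 2.01 with a pseudocount of 5. The distance between Gbp3 and its chromosome 3 neighbours, 3.01, was 2.45 with a pseudocount of 5. The median of the 10 members was -0.82 with equal totals. Of 126 values of the other 9 members over these alternatives 124 were below 0; the exceptions were Gbp6 (0.00713) and Gbp10 (0.155) without CONT replicate 1, whose values without 1 library each began at -0.318 and -0.416. Gbp2b, at -0.80, was -1.65 with a pseudocount of 0.1 and -0.25 with 5. The 5 members below CONT in every DM library were 7 with equal totals and 5 to 8 when 1 library was left out, 8 without DM replicate 2. The summed FPKM of the members, at 0.959 of CONT, was 0.724 with equal totals and 0.898 to 1.06 without 1 library each, alternatives chosen after seeing the data.

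Genes called higher, 166, were 23 with no filter and 22 to 179 without 1 library each. Genes called lower, 33, were 5 with no filter, 19 with a mean of at least 5 FPKM, 15 with a pseudocount of 5 and 2 to 28 without 1 library each. With the replicate number as a block 185 were higher and 19 lower; deviations from the group mean of same-numbered libraries correlated at -0.361, -0.382 and -0.203, so the numbers were not taken to pair them. The inflammasome call, 1, was 0 with equal totals, with no filter and with the replicate block, and 0 to 1 without 1 library. Interferon gamma signalling and type I interferon lists each had 0 to 1 without 1 library. Medians changed sign for dynamin-like GTPases (0.139 without CONT replicate 1, and -0.222 at the lowest without 1 library), interferon gamma signalling (0.0104 without DM replicate 1, and -0.284 at the lowest), interferon gamma targets (-0.171 with equal totals) and ATG8 conjugation (-0.0483 with equal totals). The cause was not tested.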

Other observations

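Gbp11, a further gene of the family that the annotation lists as a polymorphic pseudogene beside Gbp6 on chromosome 5, was at 4.14, 7.65 and 4.97 FPKM in DM and 3.86, 3.26 and 3.18 FPKM in CONT. Its DM libraries were all above its CONT libraries, unlike those of Gbp6 and Gbp10 next to it, and it did not pass (log2 difference 0.54 ± 0.23 SE; limma adjusted p = 0.313, Benjamini-Hochberg). Gm43302, which shares most words of 75 bases with Gbp6 and Gbp10, averaged 6.85 FPKM in DM and 6.06 FPKM in CONT (log2 difference 0.12 ± 0.26 SE; limma adjusted p = 0.784, Benjamini-Hochberg).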
